A study of Mus musculus with 6 samples.

Results

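The subject is a block of microRNAs (miRNAs) from the imprinted Dlk1-Dio3 region of mouse chromosome 12, the miR-127 group antisense to Rtl1 with its neighbours up to Rian, as held by AGO2 in mouse embryonic stem cells. Members were chosen by name: every row of the miRNA count tables whose name, without its 5p or 3p ending, is 1 of 17 listed hairpin names. The rule took 33 of the 1978 mature miRNAs in the tables, both arms of 16 hairpins and the single name miR-882. The cells were a line of the Spy3-Ago2 genotype, with library names that begin with E14, grown with serum and the cytokine LIF on gelatin. AGO2, the Argonaute protein that carries miRNAs to their targets, bore a Spy3 tag and was captured on a SpyCatcher3 resin, and 2 miRNA libraries were made from the RNA it held. These form a single group, since genotype and treatment are the same in both, and the series also has target and input libraries that enter only through a list of 3292 target peaks. Whether the line is 1 clone, and whether the replicates came from separate cultures, the labels leave unstated, so their spread may be technical.

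The Dlk1-Dio3 region carries protein genes expressed from the paternal chromosome, Dlk1, Rtl1 and Dio3, and noncoding RNAs expressed from the maternal one, Meg3, Rian and Mirg, together with one of the largest miRNA clusters of the genome. Several of its miRNAs are made from a transcript that runs antisense to Rtl1, a retrotransposon-derived gene needed in the placenta, and because they match the Rtl1 transcript base for base they can direct its cleavage. Expression of the maternal RNAs of this region is a known mark of fully potent mouse stem cell lines. A miRNA hairpin yields a 5p and a 3p strand, of which AGO2 usually keeps one, and the kept strand finds targets mainly through its seed, bases 2 to 8.

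All 33 members had a mature sequence in the RefSeq table of the GRCm38.p6 build. The 15 members with a mean share of at least 0.01% of the miRNA counts are printed here from the most to the least abundant, 5′ to 3′, with the seed in capitals, because the seeds define what this block adds to the AGO2 pool.
miR-127-3p: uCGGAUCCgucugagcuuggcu
miR-665-3p: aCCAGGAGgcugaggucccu
miR-434-3p: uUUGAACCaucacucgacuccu
miR-673-5p: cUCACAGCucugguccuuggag
miR-431-5p: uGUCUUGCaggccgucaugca
miR-540-3p: aGGUCAGAggucgauccugg
miR-127-5p: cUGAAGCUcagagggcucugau
miR-370-3p: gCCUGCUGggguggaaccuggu
miR-136-5p: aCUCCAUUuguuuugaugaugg
miR-540-5p: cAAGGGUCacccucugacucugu
miR-434-5p: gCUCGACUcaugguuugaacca
miR-433-3p: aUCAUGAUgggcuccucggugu
miR-136-3p: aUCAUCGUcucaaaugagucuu
miR-337-5p: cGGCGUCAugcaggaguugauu
miR-341-3p: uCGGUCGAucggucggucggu
No seed recurred among the members, which had 33 distinct seeds, so the block cannot be grouped into seed families.

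Depth was 12562727 counts for replicate 1 and 22908172 for replicate 2, and 31 of the 33 members had at least 1 count in each. The labelled cell type was checked against lists of marker miRNAs. The 4 stem cell markers of the miR-290 cluster held 29.4% and 30.01% of the counts. Most of that was miR-290a-5p, at 24.1% and 23.5%. miR-291a-3p held 2.41% and 3.37%, miR-295-3p 2.39% and 2.64%, and miR-294-3p 0.550% and 0.485%. The 3 let-7 names, which rise on differentiation, held 0.0114% and 0.00944%. The 4 names of the miR-302/miR-367 cluster held 0.0598% and 0.0829%, the 5 fibroblast names 0.250% and 0.261%, and the 3 blood names 0.732% and 0.837%. Most of the fibroblast sum was miR-145a-5p, at 0.146% and 0.159%, and miR-21a-5p, at 0.0835% and 0.0821%, while miR-214-3p had 4 and 3 counts. The blood sum was mostly miR-150-5p, at 0.635% and 0.718%, with miR-142a-3p at 0.0971% and 0.119%, while miR-223-3p had 1 and 8 counts. The 3 neural names held 1.00% and 1.67%, mostly as miR-124-3p. No pull-down from cells without the tag was analysed here, so no background could be subtracted. These libraries pool many cells, and fewer cells with a miRNA cannot be told apart from less of it per cell.

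The members together held 4.64% of the counts of replicate 1, with a 95% Wilson interval of 4.63 to 4.65, and 4.004% of replicate 2, with one of 3.996 to 4.01, a mean of 4.32% ± 0.45 (SD, n = 2 here and for every mean below). Intervals cover counting error only, and the libraries differed by far more than that. One strand, miR-127-3p, made up most of the sum. Without it the remaining 32 members held 1.75% and 1.68%, a mean of 1.72% ± 0.05. The 5 most abundant members held 92.1% and 89.3% of the block's own counts. The rest of the imprinted cluster downstream, from miR-379 to miR-410, had 71 names in the tables and held 3.99% and 3.65%. The block exceeded that cluster 1.16-fold in replicate 1 and 1.10-fold in replicate 2, but fell below it without miR-127-3p.

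**Figure D1:**
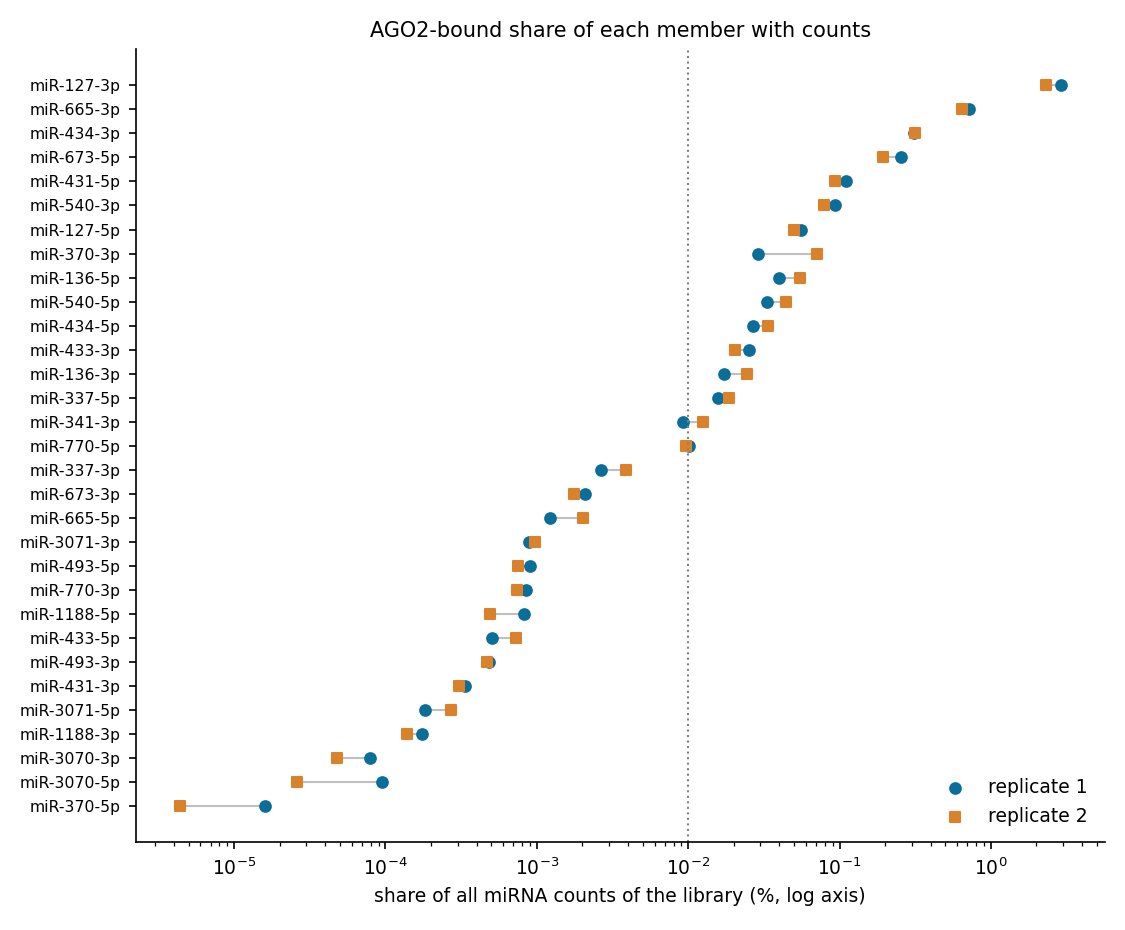
Share of all miRNA counts in each library, in percent on a log axis, for the 31 members with counts, with circles for replicate 1, squares for replicate 2 and a dotted line at 0.01%. The shares run from 2.89% for miR-127-3p to 2 and 1 counts for miR-370-5p, and the pair of libraries lies close together for most members. The gap is widest for miR-370-5p and for miR-3070-5p, which had 12 and 6 counts, and next widest for miR-370-3p.

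The strands antisense to Rtl1 came first. The hairpins miR-431, miR-433, miR-127, miR-434 and miR-136 lie within 4.94 kb of the plus strand, inside the RefSeq span of Rtl1 (chr12:109564900-109604418), and this grouping of neighbours was made with their values known. They held 3.47% and 2.92% of the counts, 74.8% and 72.8% of the block. miR-127-3p, which is reported to repress Bcl6 besides Rtl1, stood at 2.89% and 2.32%, a mean of 2.61% ± 0.40, and ranked 7th and 9th among all miRNAs in the tables. It was lower in replicate 2, 0.80-fold, with a counting interval of 0.8004 to 0.807. miR-434-3p held 0.308% and 0.316%, nearly equal between libraries. miR-431-5p, a miRNA known from muscle and nerve, held 0.110% and 0.0931%. The 5 hairpins were far from equal although they are close neighbours: the miR-127 hairpin gave 115 and 113 times the counts of the miR-433 hairpin, which lies 1008 bases away.

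Lower levels were seen for the other strands of this set. miR-127-5p, the less used arm of its hairpin, held 0.0556% and 0.0498%. miR-136-5p, reported to repress Mtdh, held 0.0399% and 0.0544%, and its partner miR-136-3p held 0.0173% and 0.0244%. Both arms of the miR-136 hairpin were higher in replicate 2. miR-434-5p held 0.0269% and 0.0339%, and miR-433-3p, reported to repress Hdac6 and Fgf20, held 0.0251% and 0.0203%. Without miR-127-3p the 5 hairpins held 0.584% and 0.593%, nearly the same in each library.

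The hairpins upstream of them, miR-673, miR-493, miR-337, miR-540, miR-665 and the locus pair of miR-3070, also lie within the Rtl1 span and held 1.12% and 0.993% of the counts. miR-665-3p led them with 0.713% and 0.648%, a mean of 0.680% ± 0.05, and was the second most abundant member 3.83 times below miR-127-3p by mean share. miR-673-5p followed with 0.255% and 0.195%. miR-540-3p held 0.0935% and 0.0784%, while its other arm, miR-540-5p, moved the opposite way with 0.0334% and 0.0443%. miR-337-5p held 0.0158% and 0.0187%. The hairpins miR-337, miR-540 and miR-665 fit within 0.619 kb, yet miR-665 gave 38.8 and 28.8 times the counts of miR-337. miR-493 and miR-3070 were scarce, with 175 and 278 counts for the miR-493 hairpin and 22 and 17 for miR-3070.

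The hairpins within Rian (chr12:109603945-109661716), which is a host of many small nucleolar RNAs, held 0.0390% and 0.0841%. miR-370-3p, reported to repress Foxo1, was most of this with 3613 counts in replicate 1 and 16245 in replicate 2, or 0.0288% and 0.0709%. Among the members that reached 100 counts in both libraries it differed most by fold. miR-341-3p held 0.00927% and 0.0126%. miR-1188-5p had 103 and 113 counts. Just below the 0.01% line stood miR-770-5p, from the only member hairpin inside the Meg3 span, with 0.0101% and 0.00964%, a mean of 0.00988% against 0.0109% for miR-341-3p just above it.

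**Figure D2:**
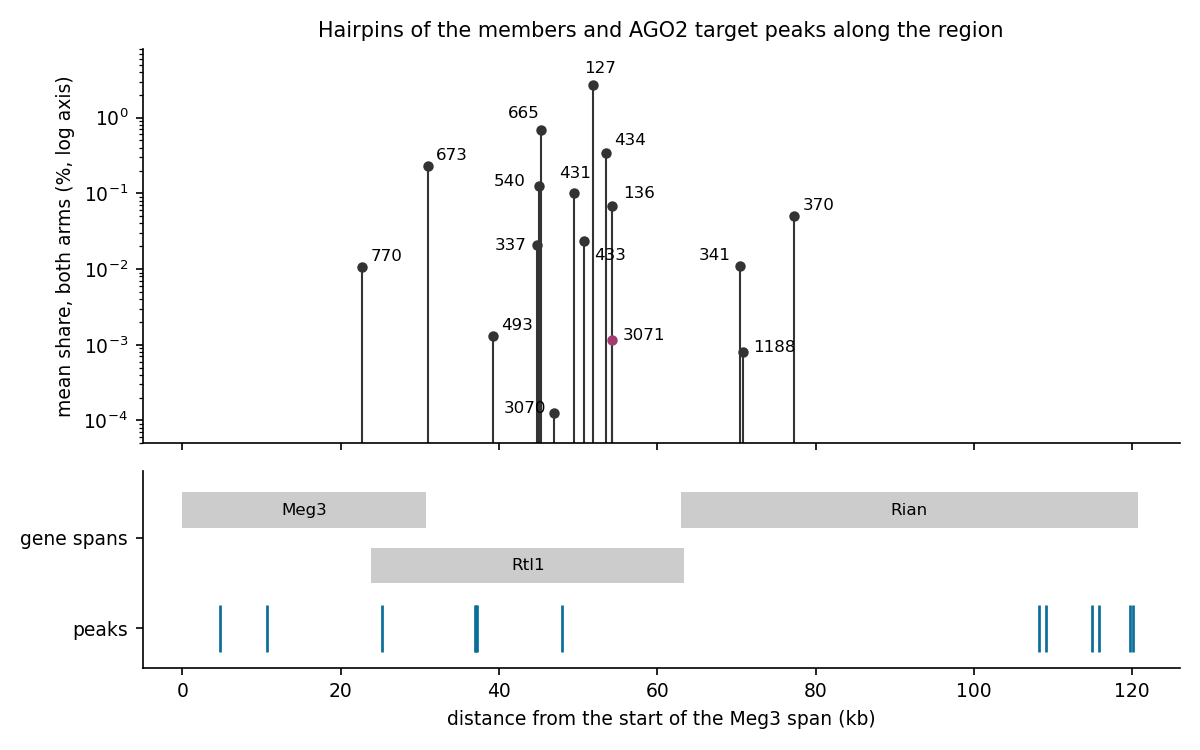
Mean share of both arms of each hairpin, in percent on a log axis, at its distance in kb from the start of the Meg3 span, above the spans of Meg3, Rtl1 and Rian and the AGO2 target peaks as ticks; miR-3071, on the minus strand, is coloured and miR-882, with 0 counts, is not drawn. miR-127 and miR-665 stand highest, each beside far lower neighbours, and no tick coincides with a hairpin.

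The order of the 15 members above 0.01% held in most places. Of the 14 neighbouring pairs, 11 kept their order in both libraries and 9 differed by more than the larger SD of the pair. The first 7 places, from miR-127-3p to miR-127-5p, were all separated by more than that SD. The 3 pairs that changed order were miR-127-5p with miR-370-3p, miR-370-3p with miR-136-5p, and miR-433-3p with miR-136-3p. The remaining 18 members held 0.0214% and 0.0222% in all, and 8 of them reached 100 counts in each library. The names miR-341-5p and miR-882 had no counts in either library. A count of 0 allows a share of up to 2.39e-05% in replicate 1 and 1.31e-05% in replicate 2, taking 3 counts as the limit. The hairpin of miR-882 lies between Rian and Mirg, 63861 bases beyond that of miR-370.

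One hairpin of the block lies on the other strand. miR-3071 is read from the minus strand over the same place as miR-136, so that the whole miR-136 hairpin of 62 bases is contained in the reverse complement of miR-3071. The printed hairpins show the mature arms in capitals.
miR-136: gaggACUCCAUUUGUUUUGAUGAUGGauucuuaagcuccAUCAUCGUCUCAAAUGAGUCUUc
miR-3071: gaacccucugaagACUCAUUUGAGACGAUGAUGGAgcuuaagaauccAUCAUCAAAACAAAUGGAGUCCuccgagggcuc
The plus strand dominated. The miR-136 hairpin had 7191 and 18048 counts against 135 and 284 for miR-3071, a ratio of 53.3 in replicate 1 and 63.5 in replicate 2. miR-136-5p and miR-3071-3p are complementary over 20 bases, and miR-136-3p and miR-3071-5p over 19. Counts were thus assigned to strands from both sides of this place, at very unequal levels. Whether the assignment of reads kept these complementary strands apart was not tested, so the miR-3071 counts may not all be minus-strand RNA held by AGO2. No other pair of hairpins of the block was complementary over more than 9 bases in a row.

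By arm, the 3p strands held 4.09% and 3.50% of the counts and the 5p strands 0.550% and 0.503%. miR-127-3p accounted for most of this difference. The 3p strands without it held 1.20% and 1.18%, still more than the 5p strands. Arm use was read where the 2 arms of a hairpin summed to 100 counts or more per library. This held for 15 hairpins and leaves out miR-3070 and the single name miR-882. Of these, 8 had more 3p and 7 more 5p counts, near the 50.8% with more 3p counts among all 260 hairpins measured in the same way. The major arm was the same in both libraries for all 15.

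At least 90% of counts lay on 1 arm in 9 of the 15 hairpins, against 72.3% of the 260. miR-370 was nearly pure 3p, with 2 and 1 counts on its 5p arm, and miR-341 had none there. miR-665 had 99.8% and 99.7% of its counts on the 3p arm, miR-127 98.1% and 97.9%, miR-433 98.0% and 96.6%, and miR-434 92.0% and 90.3%. Among the 5p hairpins, miR-431 stood at 99.7% in both libraries, miR-673 at 99.2% and 99.1%, and miR-770 at 92.3% and 92.9%. The other 6 hairpins had less than 90% of their counts on the major arm. miR-136 kept 69.8% and 69.1% on its 5p arm, miR-337 85.6% and 82.8%, miR-1188 82.4% and 77.9%, and miR-493 65.1% and 61.5%. miR-3071 kept 83.0% and 78.2% on its 3p arm, and miR-540 73.7% and 63.9%.

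**Figure D3:**
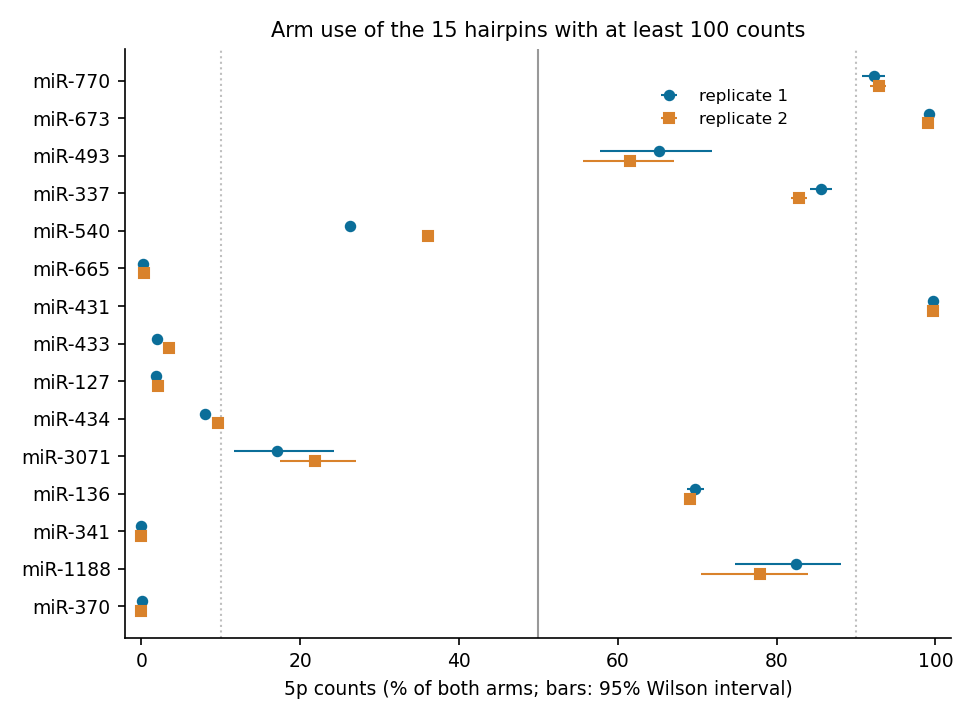
Counts on the 5p arm as a percent of both arms, for the 15 hairpins in their order along the chromosome, with circles for replicate 1, squares for replicate 2, bars for the 95% Wilson interval, and dotted lines at 10% and 90%. Most hairpins sit at an edge of the plot, and miR-540 shows the widest gap between libraries, 26.3% against 36.1%.

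The largest change of arm use between libraries was that of miR-540, whose 5p share was 26.3% in replicate 1 and 36.1% in replicate 2, 9.77 percentage points apart. It was the only 1 of the 15 hairpins that differed by at least 5 points, against 7.31% of the 260. The median difference was 0.699 points in the block and 0.401 points over all. The Wilson intervals did not overlap for 6 of the 15 hairpins, namely miR-337, miR-540, miR-665, miR-433, miR-127 and miR-434, against 27.3% of the 260. A further measure was chosen after the values were seen: in which library the less used arm took the larger part of its hairpin. A minimum of 10 counts on each arm per library left 13 of the 15 hairpins, without miR-341 and miR-370. The less used arm of miR-370 went from 0.0553% to 0.00616%, on 2 and 1 counts. Of the 13 hairpins, 12 gave the less used arm more in replicate 2, and miR-770 was the exception. Among all 192 hairpins so measured it was 50.5%, and among the 25 of the miR-379 to miR-410 cluster 10 did so. Of the 12, only the 6 named above had Wilson intervals that did not overlap. The part of the less used arm went from 0.171% to 0.311% for miR-665, from 1.99% to 3.44% for miR-433 and from 8.04% to 9.69% for miR-434. For miR-136 it went only from 30.2% to 30.9%. With 1 pair of libraries this describes these libraries and has no replicate check.

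The libraries were then compared member by member, as the ratio of shares in replicate 2 over replicate 1. Of the 33 members, 23 reached 100 counts in both libraries, and 3 of them differed at least 1.5-fold, against 4.92% of the 427 miRNAs that did so. At a minimum of 10 counts 4 of 29 members differed that much, against 16.5% of 677 miRNAs. Over all 427, 2.58% were that much higher in replicate 2 and 2.34% that much lower. miR-370-3p was 2.47-fold higher in replicate 2 (counting interval 2.38 to 2.56), the second highest ratio of the 427. miR-665-5p was 1.66-fold higher, from 153 and 463 counts, with an interval of 1.38 to 2.01. miR-1188-5p was 1.66-fold higher in replicate 1, from 103 and 113 counts. As replicate 2 over replicate 1 its ratio was 0.602, with an interval of 0.457 to 0.794. The neural marker sum was also higher in replicate 2, 1.66-fold, and the miR-302/miR-367 sum 1.39-fold. The difference of each sum lay in 1 name. miR-124-3p held 0.899% and 1.57%, against 0.0887% and 0.0904% for miR-9-5p and 0.0154% and 0.0135% for miR-128-3p. miR-367-3p held 0.0308% and 0.0588%, while miR-302a-3p, miR-302b-3p and miR-302d-3p were each lower in replicate 2. Their part in the result was not tested.

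The median log2 ratio of the 23 members was -0.07, close to the -0.04 of all 427, with 11 above 0 and 12 below. The spread of the members was wider, with an SD of 0.46 against 0.30 over all and 0.30 for the 48 measured names of the miR-379 to miR-410 cluster. Of the 23 members, miR-370-3p had the largest log2 ratio in either direction. The SD without it was not computed, so how much of the wider spread it accounts for was not tested. The members with the highest shares tended to be lower in replicate 2, with log2 ratios of -0.32 for miR-127-3p, -0.14 for miR-665-3p and -0.39 for miR-673-5p, while miR-434-3p stood at 0.04. Strands of 1 precursor did not always move together. The arms of miR-136 had log2 ratios of 0.45 and 0.49 for 5p and 3p, those of miR-127 -0.16 and -0.32, but those of miR-540 0.41 and -0.25 and those of miR-665 0.73 and -0.14.

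**Figure D4:**
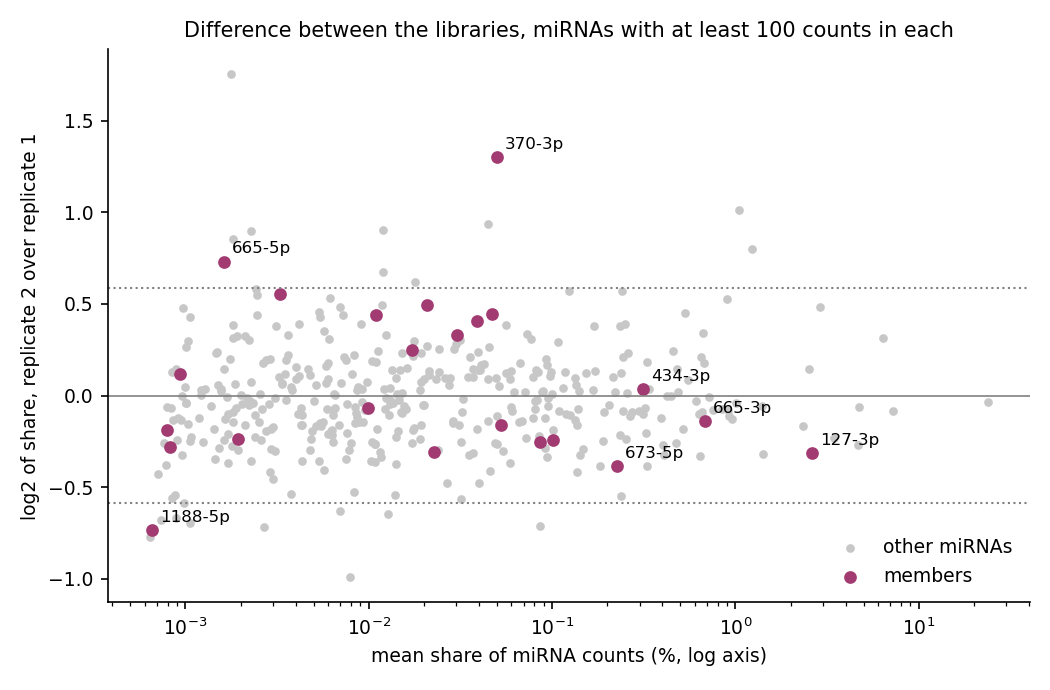
Log2 of the share in replicate 2 over replicate 1 against the mean share in percent on a log axis, for the 427 miRNAs that reached 100 counts in both libraries, with the 23 members coloured and dotted lines at 1.5-fold. miR-370-3p is the highest member, miR-665-5p and miR-1188-5p lie just outside the lines, and the other 20 members lie between them.

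Few other miRNAs carried the seeds of the block. Of the 1978 names, 1679 had a sequence in the RefSeq table, and names without one held 7.44% and 8.06% of the counts and could not be searched. For 28 of the 33 members no other name shared bases 2 to 8. For 4 of the other 5 the partner had at most 4 counts in a library. The 1 partner with a substantial count was miR-1193-3p, from the miR-379 to miR-410 cluster, which shares the seed of miR-370-5p and had 1775 and 4973 counts against 2 and 1.
When the match was shortened to bases 2 to 7, a choice made after seeing the data, 1 abundant member met an abundant family. miR-673-5p shares these 6 bases with miR-27a-3p and miR-27b-3p, which are printed beside it with bases 2 to 8 in capitals.
miR-673-5p: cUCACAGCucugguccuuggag
miR-27a-3p: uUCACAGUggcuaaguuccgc
miR-27b-3p: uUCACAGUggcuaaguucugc
Here miR-27a-3p held 1.00% and 0.916% of the counts and miR-27b-3p 0.255% and 0.257%, so that miR-673-5p supplied 16.9% and 14.2% of the counts with these bases. By contrast miR-127-3p, miR-434-3p, miR-431-5p and miR-370-3p shared bases 2 to 7 with no other name that had a sequence.

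Base composition and the first base were read from the same sequences. The 23 members that reached 100 counts in both libraries had a median GC content of 57.1%, from 36.4% for both arms of miR-136 and for miR-3071-3p to 72.7% for miR-770-3p, against a median of 47.6% over 345 miRNAs with such counts and a sequence. The first base, which sits in a pocket of AGO2 that prefers U or A, was U or A on the major arm of 12 of the 15 hairpins, near the 75.4% of 195 hairpins with sequences. On the less used arm it was U or A in 8 of the 15, near the 56.4% of the same 195 hairpins. Of the 3 hairpins whose major arm begins otherwise, miR-673 and miR-337 start with C and miR-370 with G.

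Target peaks were read last, to see whether AGO2 was also mapped to transcripts of the region. The peak list is that of the whole series, on the mm10 build, with no value per library. From Begain to Dio3 it held 13 peaks, all 13 on the plus strand, the strand of every member hairpin but miR-3071. Of all listed peaks, 51.7% are on the plus strand. The 13 all lie within the spans of Meg3, Rtl1 and Rian, so they are neighbours and not independent of each other. Meg3 had 3 peaks within its span and Rian 6, while 0.621% of all 12731 lncRNA genes, expressed or not and of any length, had any. The Rtl1 span held 5 peaks, of which 1 also lies within Meg3. None of them was on the minus strand, from which Rtl1 itself is known to be read. Dlk1, Dio3, Mirg and Begain had none. No peak overlapped a member hairpin, and the nearest, chr12:109588943-109589004, began 263 bases past the second miR-3070 locus. A group of 3 peaks lay between the miR-673 and miR-493 hairpins, the outermost from 109578006 and to 109578300.

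Of 14 genes listed as reported targets of the members, 4 had a peak within their span, against 8.33% of all 21900 protein-coding genes, expressed or not. The list was chosen with earlier results of these data known, so no excess of peaks can be read from these shares. Mtdh, reported for miR-136-5p, had 5 peaks, and Lin28a, an RNA-binding protein gene of stem cells reported for miR-370, had 2. Foxo1 and Igf1r, reported for miR-370 and miR-493, had 1 each. Bcl6, Xbp1, Prdm1, Kmt5a, Smad4, Pax7, Kremen1, Hdac6, Grb2 and Fgf20 had none, and Bcl6, Xbp1, Prdm1 and Kmt5a among these are the listed targets of miR-127-3p. Peak sequences were not used here, so no peak can be tied to a member, and other miRNAs may bind the same genes. Levels of the target transcripts were not analysed here.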

How the data were processed

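The authors deposited raw counts per mature miRNA for each of the 2 miRNA libraries, without normalization, and 1 peak list for the series whose deposited score is 0 for every peak. Per the submitters' processing notes, the aligners STAR 2.5.2a and Bowtie2 2.4.2, the trimmer cutadapt 2.10, DESeq2 1.36.0, deepTools 3.1.3 and UMI-tools were used, with mm10. Not given in the sources used here is which step used which tool, whether molecular identifiers were collapsed, and how reads matching several miRNAs were counted. Uncollapsed duplicates would make the intervals too narrow. A final line that names no miRNA held 0 counts and was left out.

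From these counts, shares of the library total were computed with mean and SD over the replicates and 95% Wilson intervals. Ratios between libraries were read for miRNAs that reached 100 counts in both libraries, with an exact conditional interval, and 1.5-fold was taken as a difference. Arm use needed 100 counts over both arms. With 1 group of 2 libraries no contrast could be fitted, so no p-value is given. A peak was given to a gene when its midpoint lay in the span of RefSeq GRCm38.p6, the assembly of mm10, irrespective of strand, with positions counted from 1. The members, lists, neighbour groups and reported targets were chosen with earlier results of these data known. Members of at least 0.01% mean share are given per library, and others by range, or by name where they differ at least 1.5-fold, pair with a named arm or have 0 counts; miR-770-5p, miR-493, miR-3070, miR-3071 and miR-770-3p were named after their values were seen. Ratios and their intervals were checked on simulated counts, and the formulas for arm use and the Wilson interval on made-up counts. Python 3.11.15, numpy 2.4.6, pandas 2.3.3, scipy 1.17.1, matplotlib 3.10.9, R 4.3.3 and edgeR 4.0.16 (for its scaling only) were used.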

Additional observations from a re-analysis of the deposited data

How the results depend on the processing

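No paired analysis was possible because only the miRNA libraries have values per replicate, so no groups could be compared. With miR-290a-5p left out of the library total, the block held 5.67%, miR-127-3p 3.42%, the 5p arms 0.691%, the 3p arms 4.98% and the miR-379 to miR-410 cluster 5.02%. Without miR-127-3p the block held 1.72% and its 3p arms 1.19%. From 1 library at a time the block held 4.004% to 4.64%, miR-127-3p 2.32% to 2.89%, the 5p arms 0.503% to 0.550%, the 3p arms 3.50% to 4.09% and the miR-379 to miR-410 cluster 3.65% to 3.99%, and 9 hairpins had 90% on 1 arm in either. The 3 members that differed at least 1.5-fold became 1, miR-370-3p, at a minimum of 1000 counts (1 of 16, against 4.26% of 258 miRNAs) or at a 2-fold limit (1 of 23, against 0.703% of 427). At a minimum of 10 counts 4 of 29 members did so, against 16.5% of 677 miRNAs. TMM, median-of-ratios size factors and a total without miR-290a-5p left 3. At a 95% limit 7 hairpins had 1 main arm. With bases 2 to 7, an alternative chosen after seeing the data, 3 members instead of 1 held under 90% of the counts of their seed. Depth limits the 10 members under 100 counts in a library, which the main comparison of ratios left out.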

Other observations

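A second hairpin of the region is also mirrored on the minus strand, and its name lies outside the rule. miR-3544 is read over the same place as miR-337. miR-3544-5p had 55 and 140 counts against 332 and 889 for miR-337-3p, to which it is complementary over 21 bases, a ratio of 6.04 and 6.35. miR-3544-3p had 15 and 20 counts against 1980 and 4283 for miR-337-5p, complementary over 17 bases, a ratio of 132 and 214. miR-3070-2-3p, from the second miR-3070 locus and likewise outside the rule, had 1 and 0 counts.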
